A study of Mus musculus with 10 samples.

Results

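Notch signalling passes between touching cells. A ligand of the Delta or Jagged kind on 1 cell engages a Notch receptor on its neighbour, ADAM proteases and then γ-secretase cut the receptor, and the freed intracellular part enters the nucleus, where it joins RBPJ and a Mastermind coactivator and switches on genes such as *Hes1* and *Hes5*. In the embryonic cortex the pathway is best known for keeping radial glia as progenitors, whereas newborn neurons and intermediate progenitors display ligand to the cells around them. The 41 genes described here are its receptors, ligands, proteases, sugar-adding enzymes, ubiquitin ligases, nuclear cofactors and targets, chosen by name from the symbols of the deposited count table. The table holds 40 of them among its 14300 genes, and *Heyl* was not analysed here.

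RNA came from *Grem1creERT; Rosa26LSLTdtomato* embryos on a C57BL/6J background, collected in the middle of cortical neurogenesis, 24 hours after their mothers had received tamoxifen. The Cre in this line is driven by *Grem1* regulatory sequence and is active only with tamoxifen, so cells that used it, and their progeny, carry TdTomato. Live TdTomato+ and TdTomato- cells were sorted from the same 5 numbered mice, 2 to 6, which gave 5 libraries of each population. Both populations therefore share genotype and tamoxifen, and the TdTomato- cells are a mixture of every other live cell of the dissected tissue, which the labels call brain and the methods dorsal telencephalon. Whether a mouse number stands for 1 embryo or for pooled littermates is not given in the sources used here.

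Libraries held 23429034 to 27286180 counts, so depth was similar throughout. *Grem1* was at 60.7 to 68.4 CPM (counts scaled to library size with TMM factors) in TdTomato+ and 5.0 to 7.0 CPM in TdTomato- libraries. Of the marker genes listed for other cell types of the tissue, all 7 of neurons and 4 of 5 of deep cortical layers were higher in TdTomato+ cells. All 10 radial glia, 8 intermediate progenitor, 8 GABAergic and subpallial, and 6 proliferation markers were lower, each by more than 2 on the log2 scale, as were all 6 microglia and all 5 erythroid markers in the table (0.725 to 1.58 and 1.18 to 25.7 CPM in sum in TdTomato+ libraries, against 14.7 to 68.5 and 74.2 to 258 CPM). The summed level of the radial glia markers was 1744 to 2184 CPM in TdTomato- and 136 to 192 CPM in TdTomato+ libraries, that of the GABAergic and subpallial markers 1407 to 1783 against 51.3 to 74.3 CPM, and that of the proliferation markers 1502 to 1820 against 53.6 to 87.0 CPM. These lists moved with the falls and rises given here, and their part in them was not tested. In bulk RNA, fewer cells of a type and less RNA in each cell cannot be told apart.

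Of the 40 Notch pathway genes, 23 were significantly lower and 12 higher in TdTomato+ than in TdTomato- cells (adjusted p of 0.05 or less, edgeR quasi-likelihood F-test with the mouse as a block), and 5 did not pass. Of all 14300 genes, 39.4% were lower and 37.9% higher by the same test. When the log2 fold change also had to be 2 or more in size, 12 members were lower and 0 higher, against 9.74% and 3.20% of all genes, and the highest log2 fold change of any member was 1.74. DESeq2 gave the same counts. The CPM values of the 5 TdTomato+ and 5 TdTomato- libraries did not overlap for 32 of the 40, as for 61.6% of all genes. The median log2 fold change was -0.66 over the members and -0.01 over all genes. The members were listed with earlier results of these data known, so these counts describe the list and are no independent test of it. By role, all 3 receptors and all 6 targets were lower, whereas the proteases, ubiquitin ligases and Numb proteins moved both ways, with none past both thresholds.

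**Figure D1:**
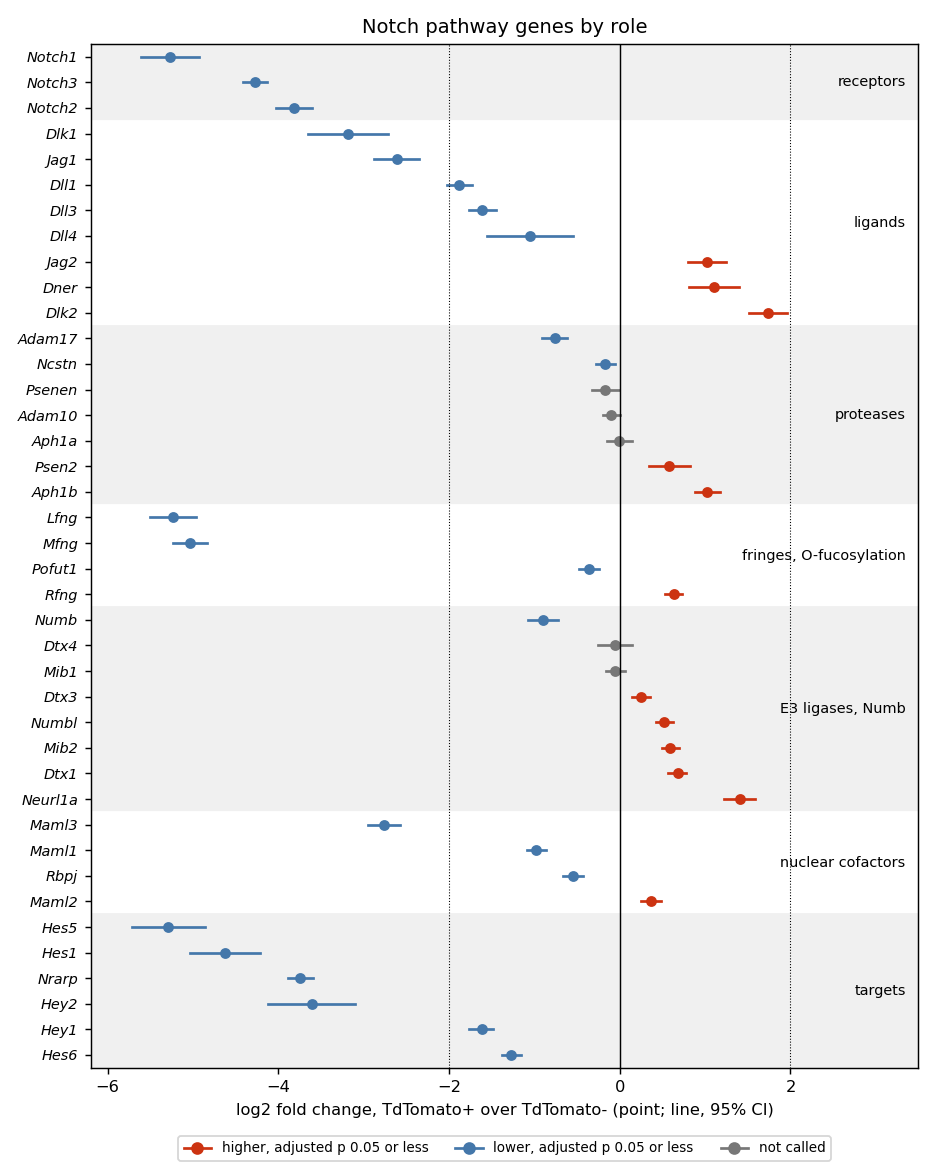
Log2 fold change of each of the 40 Notch pathway genes, TdTomato+ over TdTomato-, grouped by role (point, edgeR estimate over 5 mice; line, 95% confidence interval; dotted lines, log2 fold changes of -2 and 2). Receptors, *Lfng*, *Mfng* and most targets lie between -5.29 and -3.61, whereas proteases lie between -0.76 and 1.02.

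The receptors carry the extracellular repeats that ligands bind and the intracellular part that acts in the nucleus. *Notch1*, on chromosome 2 between 26457903 and 26516663, minus strand (GRCm38), had 12941, 13023, 9055, 12492 and 12900 counts in the TdTomato- libraries of mice 2 to 6 and 193, 265, 176, 341 and 376 in the TdTomato+ libraries. Every TdTomato+ count was thus below 400, and the populations were far from overlapping. Its level was 453±56.3 in the former and 12.0±3.93 CPM in the latter (mean±s.d., n=5; log2 fold change -5.27, s.e. 0.15, adjusted p = 5.5e-09, edgeR). *Notch2* went from 2956 to 5033 counts down to 213 to 349 (log2 fold change -3.82, s.e. 0.09, adjusted p = 2.7e-09). *Notch3*, known in vessels for its place in mural cells but also carried by cortical progenitors, went from 2081 to 2898 counts down to 88 to 113 (-4.27, s.e. 0.06, adjusted p = 1.1e-09). Pericyte markers also differed between the populations, with 3 of the 4 in the table lower and a sum of 11.5 to 18.8 CPM in TdTomato- against 1.02 to 3.04 CPM in TdTomato+ libraries. Their part in the fall of *Notch3* was not tested.

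The receptors did not fall equally. Per kilobase of exon, *Notch1* made up 54.8±1.21% of the receptor transcripts in TdTomato- and 33.0±5.07% in TdTomato+ cells, lower in all 5 mice. The share of *Notch2* rose from 26.5±1.79% to 43.9±4.10%, also in all 5 mice, so that *Notch2* had the largest share per length among the few receptor transcripts left. Without division by length, *Notch1* and *Notch2* had like shares in TdTomato+ cells (41.5±5.46% and 41.9±4.18%). Such shares do not depend on the scaling between libraries. For 5 pairs in 1 direction the exact sign-flip permutation test gives p = 0.0625 (two-sided), the smallest it can give. *Notch3* rose in share in 4 of 5 mice (exact sign-flip p = 0.125).

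Ligands split into those that were lower and those that were higher. *Dll1*, the Delta ligand of differentiating cells in the ventricular and subventricular zones, was at 2919 to 4194 counts in TdTomato- and 654 to 849 counts in TdTomato+ libraries, or 127±14.6 and 34.4±3.62 CPM (log2 fold change -1.88, s.e. 0.07, adjusted p = 1.9e-08, edgeR). It fell 3.68-fold, far less than its receptors, and had the highest level per length of the classical ligands in both populations. When counts were not divided by length, *Jag2* was above *Dll1* in 3 of 5 TdTomato+ libraries, with *Dll1* ahead in mice 3 and 4, and the means were 40.9±5.87% and 38.0±3.94% of classical ligand counts. *Dll3*, which acts within its own cell and does not activate receptors on neighbours, fell by 1.61 on the log2 scale. *Jag1* fell most of the classical ligands, by 2.61 (s.e. 0.12), from 26.0±3.66 to 4.24±0.785 CPM. *Dll4*, best known from endothelium, was rare, at 53 to 75 counts in TdTomato- and 13 to 37 in TdTomato+ libraries (-1.05, s.e. 0.22, adjusted p = 0.0019). Endothelial markers were low in both populations, with 4 of 10 in the table and a sum of 3.29 to 5.40 CPM in TdTomato- against 2.12 to 3.56 CPM in TdTomato+ libraries. Of these 4, *Kdr* and *Eng* fell (-1.24 and -1.15), while *Pecam1* (-0.62, adjusted p = 0.052) and *Esam* (0.31, adjusted p = 0.34) did not pass, and their part was not tested.

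*Jag2* moved against the other classical ligands. Its counts were 597, 504, 450, 398 and 476 in the TdTomato- libraries of mice 2 to 6 and 965, 695, 687, 893 and 953 in the TdTomato+ libraries, with every TdTomato+ value above every TdTomato- value. It rose 2.03-fold (log2 fold change 1.02, s.e. 0.10, adjusted p = 1.3e-05, edgeR). Per kilobase, *Jag2* made up 5.02±0.869% of classical ligand transcripts in TdTomato- and 27.7±5.04% in TdTomato+ cells, and *Dll1* 57.4±2.50% and 42.2±2.90%, each in the same direction in all 5 mice (exact sign-flip p = 0.0625, two-sided). *Jag1* and *Jag2* encode ligands of the same subfamily, and their log2 fold changes had opposite signs.

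The non-canonical ligands have the repeats of the family but lack the domain by which classical ligands activate the receptor. *Dlk2* was at 140, 106, 122, 108 and 127 counts in TdTomato- and 427, 257, 302, 369 and 362 counts in TdTomato+ libraries, without overlap, and had the largest increase of all members (log2 fold change 1.74, s.e. 0.10, adjusted p = 3.2e-07, edgeR). *Dner*, which encodes a transmembrane protein of neuronal dendrites and cell bodies, was close to *Dll1* per length in TdTomato- cells (30.5 and 30.1 CPM per kb) and was far above it in TdTomato+ cells (69.7 and 8.16 CPM per kb). Its counts were 3257, 4607, 4834, 3240 and 3436 in TdTomato- and 5191, 11077, 10953, 6741 and 3843 in TdTomato+ libraries of mice 2 to 6. Each mouse had more *Dner* in its TdTomato+ cells (1.11, s.e. 0.13, adjusted p = 4.4e-05), although the ranges of the populations overlapped in CPM. *Dlk1*, a paralogue of *Dlk2* and an imprinted gene, went the other way, from 623, 1156, 1845, 735 and 651 counts to 31, 135, 269, 74 and 27 (log2 fold change -3.18, s.e. 0.21, adjusted p = 8.5e-07). The ligand-like members thus included the largest rise and 1 of the 12 large falls.

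Fringe enzymes lengthen the fucose that POFUT1 places on Notch repeats and so tune which ligands a receptor answers. *Lfng* went from 904, 1018, 711, 926 and 1100 counts in TdTomato- to 14, 26, 18, 18 and 28 in TdTomato+ libraries (34.8±3.74 to 0.921±0.264 CPM; log2 fold change -5.23, s.e. 0.12, adjusted p = 2.3e-09, edgeR). *Mfng* fell by a like amount, from 2129 to 2647 counts down to 45 to 74 (-5.04, s.e. 0.09, adjusted p = 1.1e-09). *Rfng*, the third fringe, rose, with 1863, 1747, 1561, 1526 and 2028 counts in TdTomato- and 2446, 2144, 2400, 2140 and 2275 in TdTomato+ libraries (0.63, s.e. 0.05, adjusted p = 1.5e-06). *Rfng* thus went from 36.8±2.73% of fringe transcripts per kilobase to 96.8±0.747%, between 95.9 and 97.9% in each TdTomato+ library. *Pofut1*, whose product acts before the fringes, fell far less (log2 fold change -0.36, s.e. 0.05, adjusted p = 1.8e-04).

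**Figure D2:**
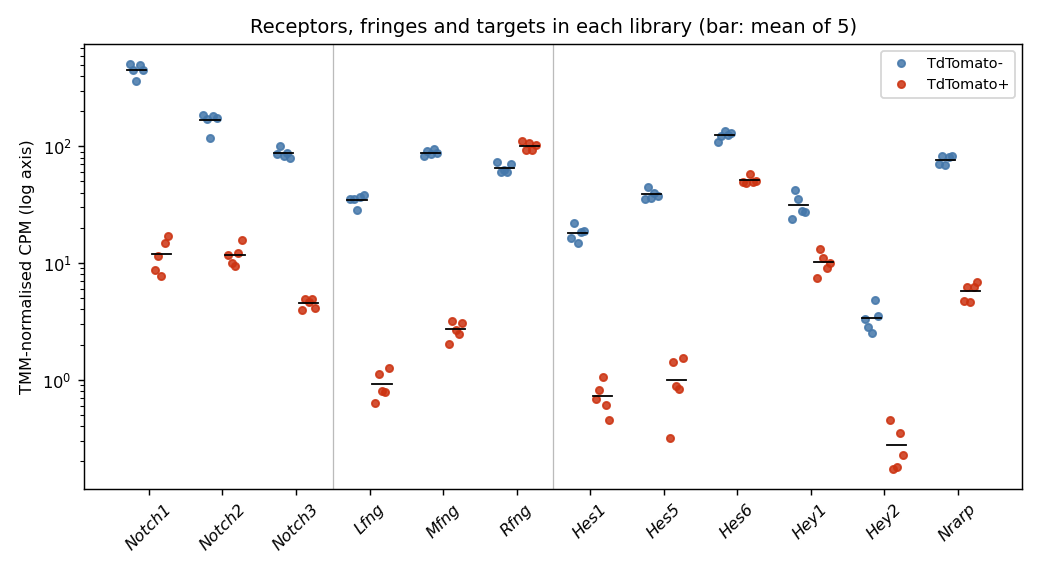
TMM-normalised CPM (log axis) of the receptors, the fringes, and the Hes, Hey and *Nrarp* genes in each of the 5 TdTomato- and 5 TdTomato+ libraries (points; bars, means). Every gene but *Rfng* has all TdTomato+ points under all TdTomato- points. *Rfng* is higher in TdTomato+ cells and has the smallest gap, and of the genes that are lower, *Hes6* and *Hey1* changed least (log2 fold changes -1.27 and -1.62).

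The proteases of the pathway cut many other membrane proteins too. *Adam10*, the main protease for the ligand-induced cut, was the most abundant of them per length and did not pass the test, with 3465, 4030, 3621, 3405 and 3518 counts in TdTomato- and 2631, 3164, 2902, 3100 and 2536 in TdTomato+ libraries. After scaling, which raised the TdTomato+ values relative to these counts, that was 135±8.30 and 127±9.74 CPM, with overlapping ranges (log2 fold change -0.10, 95% confidence interval -0.20 to 0.00, adjusted p = 0.070, edgeR). *Adam17*, the related sheddase, fell (log2 fold change -0.76, s.e. 0.06, adjusted p = 3.9e-06). Of the γ-secretase subunits, *Ncstn* (nicastrin) fell by 0.17 (adjusted p = 0.0082), and *Psenen* (-0.17, 95% confidence interval -0.33 to -0.01, adjusted p = 0.051) and *Aph1a* (-0.01, interval -0.15 to 0.14, adjusted p = 0.90) did not pass. The intervals of these last 2 genes reach no further than -0.33.

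The other two γ-secretase genes listed rose. *Aph1b*, which encodes an alternative to the Aph1a scaffold subunit, had 1118, 1377, 1371, 1134 and 1284 counts in TdTomato- and 1875, 2660, 2304, 2216 and 1826 in TdTomato+ libraries, without overlap (log2 fold change 1.02, s.e. 0.06, adjusted p = 6.8e-07, edgeR). Per kilobase, *Aph1b* rose from 62.8±2.63% to 77.4±3.72% of the 2 Aph1 transcripts, in all 5 mice. *Psen2*, which encodes a catalytic presenilin, was low, at 122 to 154 counts in TdTomato- and 157 to 191 in TdTomato+ libraries, and rose by 0.58 (s.e. 0.11, adjusted p = 8.3e-04).

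Ubiquitin ligases act on both sides of the signal, Mindbomb and Neuralized on ligands and Deltex on receptors. *Mib1*, on which ligand uptake mostly depends, did not pass the test (log2 fold change -0.05, 95% confidence interval -0.16 to 0.06, adjusted p = 0.37, edgeR). *Mib2* rose by 0.59 on the log2 scale. *Neurl1a* rose most in this role, from 190, 223, 252, 153 and 191 counts in TdTomato- to 411, 541, 587, 399 and 342 in TdTomato+ libraries (1.41, s.e. 0.08, adjusted p = 3.5e-07). *Dtx1* rose from 136±13.1 to 216±10.4 CPM (0.68, s.e. 0.05). *Dtx4* did not pass (-0.06, 95% confidence interval -0.26 to 0.14). *Dtx3* had the highest level per length of the 8 members in this role, with 5050, 4099, 3468, 3603 and 4618 counts in TdTomato- and 4741, 3588, 3942, 4060 and 4509 in TdTomato+ libraries. In CPM it was higher in the TdTomato+ cells of each mouse (log2 fold change 0.25, s.e. 0.05, adjusted p = 0.0011, edgeR), though the populations overlapped and the call was lost without the mouse as a block (adjusted p = 0.064).

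Numb proteins bind the receptor inside the cell and oppose it. *Numb* and its paralogue *Numbl* moved apart. *Numb* went from 685, 807, 563, 691 and 690 counts in TdTomato- to 285, 322, 318, 299 and 327 in TdTomato+ libraries (log2 fold change -0.90, s.e. 0.08, adjusted p = 6.2e-06, edgeR), and *Numbl* from 110±6.24 to 158±3.98 CPM (0.52, s.e. 0.04, adjusted p = 4.6e-06). Per kilobase, *Numbl* made up 65.9±2.59% of their transcripts in TdTomato- and 83.8±0.827% in TdTomato+ cells, higher in all 5 mice.

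In the nucleus, RBPJ binds DNA and Mastermind proteins bind the complex of RBPJ with the receptor fragment. *Rbpj* fell (log2 fold change -0.55, s.e. 0.05, adjusted p = 1.2e-05, edgeR), from 92.1±3.93 to 63.1±7.24 CPM, and so remained well detected. The Mastermind genes did not move together. *Maml3* went from 1137, 1400, 1242, 1245 and 1312 counts in TdTomato- to 114, 175, 194, 168 and 145 in TdTomato+ libraries (-2.76, s.e. 0.08, adjusted p = 6.1e-09), the only cofactor past both thresholds. *Maml1* went from 1583, 1978, 1510, 1810 and 1845 counts to 659, 783, 742, 798 and 759 (-0.98, s.e. 0.05, adjusted p = 1.2e-07). *Maml2* had 541, 620, 441, 669 and 604 counts in TdTomato- and 599, 606, 544, 763 and 619 in TdTomato+ libraries, which overlap between mice, but rose within each mouse once scaled (0.37, s.e. 0.05, adjusted p = 1.4e-04). Its share of Mastermind transcripts per kilobase rose from 16.6±1.45% to 38.6±2.89%, and that of *Maml3* fell from 23.2±1.57% to 6.18±1.13%, or from 35.4±2.05% to 10.4±1.84% when counts were not divided by length.

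**Figure D3:**
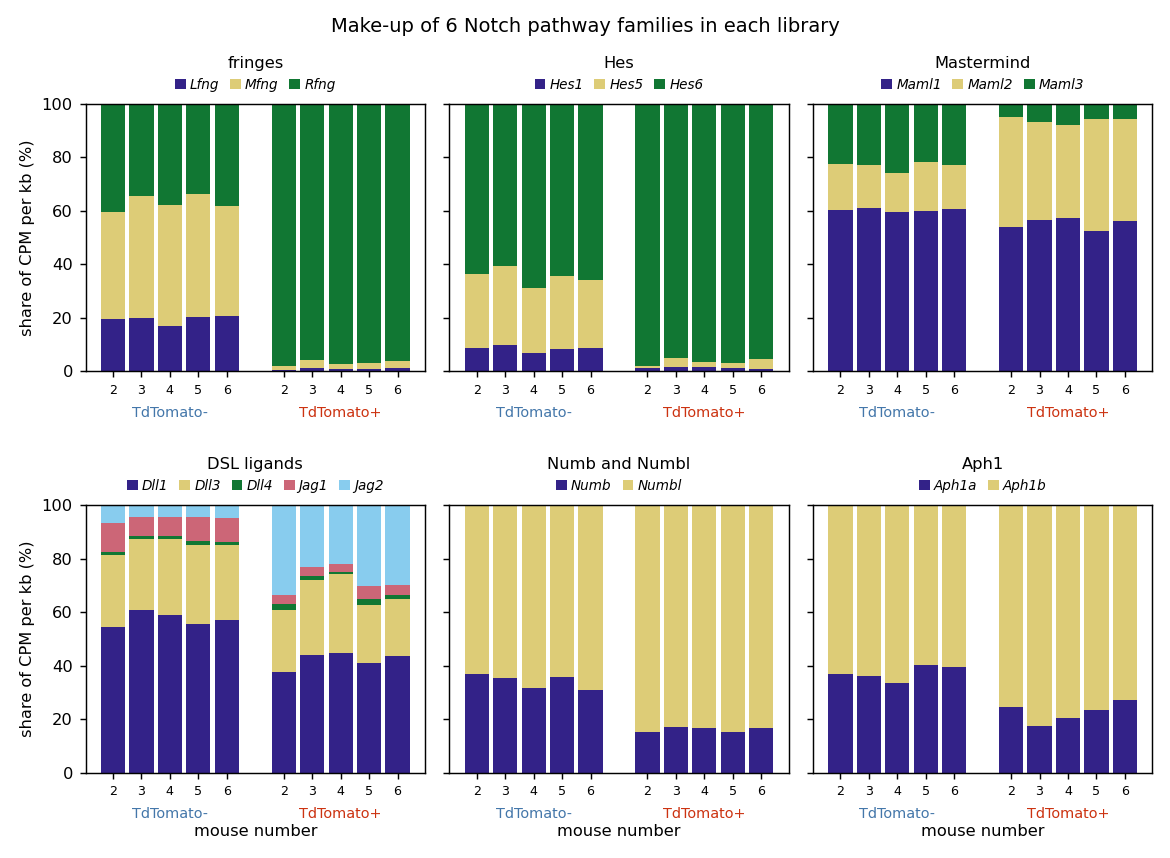
Share of each member (%) in the summed CPM per kb of its family, in each library of mice 2 to 6. *Rfng* makes up 96.8% of fringe and *Hes6* 96.3% of Hes transcripts on average in TdTomato+ libraries, against 36.8% and 64.6% in TdTomato- libraries, and *Jag2*, *Maml2*, *Numbl* and *Aph1b* also take larger shares there.

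The targets encode repressors of the Hes and Hey families, which hold back neuronal genes, and *Nrarp*, a feedback inhibitor of the receptor complex. *Hes5*, on chromosome 4 between 154960923 and 154962371, plus strand, had 908, 1301, 908, 1007 and 1087 counts in TdTomato- and 7, 33, 20, 19 and 34 in TdTomato+ libraries, the lowest in mouse 2. It fell from 38.9±3.76 to 0.999±0.496 CPM (log2 fold change -5.29, s.e. 0.19, adjusted p = 1.8e-08, edgeR), and with *Notch1* and *Lfng* had the largest falls of the members, within 1 s.e. of each other. *Hes1* went from 370 to 637 counts down to 10 to 24 (-4.63, s.e. 0.18, adjusted p = 3.0e-08), *Nrarp* from 1735 to 2376 down to 104 to 151 (-3.75, s.e. 0.06, adjusted p = 1.1e-09), and *Hey2* from 62 to 122 down to 4 to 10 (-3.61, s.e. 0.22, adjusted p = 6.0e-07). The *Hey2* counts in TdTomato+ cells lie close to the floor of 3 counts, which is 0.130 to 0.136 CPM in those libraries, so its fold change is the least exact of these.

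*Hes6* and *Hey1* fell less. *Hes6*, whose product opposes Hes1 and is known to promote neuronal differentiation, was the most abundant target per length in both populations, with 2778, 3526, 3359, 3155 and 3696 counts in TdTomato- and 1096, 1129, 1313, 1141 and 1118 in TdTomato+ libraries (log2 fold change -1.27, s.e. 0.05, adjusted p = 2.5e-08, edgeR). Of *Hes1*, *Hes5* and *Hes6* transcripts per kilobase, *Hes6* made up 64.6±2.94% in TdTomato- and 96.3±1.21% in TdTomato+ cells. *Hey1* was at 611, 1218, 886, 702 and 788 counts in TdTomato- and 164, 301, 251, 207 and 224 in TdTomato+ libraries (-1.62, s.e. 0.06, adjusted p = 2.8e-08). Its fall was nearly the same in each mouse, between -1.68 and -1.43 in log2 CPM, although its level was not.

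The promoters of *Hes5*, *Lfng* and *Hey2* are shown because they hold the core letters bound by RBPJ and their genes were among the 12 members that fell past both thresholds. Each run covers the 250 bases before the RefSeq start and the first 10 transcribed bases, 5′ to 3′ on the strand of the gene (RefSeq, GRCm38.p6), with GTGGGAA, or its reverse complement TTCCCAC, in capitals. *Hes5* is from chr4:154960673-154960932 on the plus strand, *Lfng* from chr5:140607091-140607350 on the plus strand and *Hey2* from chr10:30842774-30843033 on the minus strand.
Hes5: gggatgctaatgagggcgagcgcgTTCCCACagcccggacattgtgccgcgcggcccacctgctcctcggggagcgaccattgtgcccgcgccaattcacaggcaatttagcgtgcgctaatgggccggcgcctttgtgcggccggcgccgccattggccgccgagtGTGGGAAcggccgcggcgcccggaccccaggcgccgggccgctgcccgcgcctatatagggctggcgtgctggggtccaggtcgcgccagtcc
Lfng: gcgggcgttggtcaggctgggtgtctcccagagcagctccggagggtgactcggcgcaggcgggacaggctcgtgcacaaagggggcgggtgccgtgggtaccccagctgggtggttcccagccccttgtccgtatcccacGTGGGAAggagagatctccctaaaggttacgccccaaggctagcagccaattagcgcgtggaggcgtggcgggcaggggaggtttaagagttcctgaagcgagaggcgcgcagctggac
Hey2: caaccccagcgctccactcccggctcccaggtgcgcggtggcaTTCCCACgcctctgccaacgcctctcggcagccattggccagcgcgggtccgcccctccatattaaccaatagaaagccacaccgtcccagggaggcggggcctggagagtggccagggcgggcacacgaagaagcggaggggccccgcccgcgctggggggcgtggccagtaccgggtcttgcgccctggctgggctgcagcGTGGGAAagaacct

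Counted from the start, the base before which is -1, the matches lie from -226 to -220 (reverse) and from -83 to -77 in *Hes5*, from -109 to -103 in *Lfng*, and from -207 to -201 (reverse) and from -4 to 3 in *Hey2*. Of the 34 members with an entry among the RefSeq promoters, 5 held the motif on either strand within the 300 bases around a start (250 before, 50 after), against 7.25% of all 27025 genes with an entry. The other two were *Psen2*, which rose, and *Aph1a*, which did not pass the test. *Hes5* and *Hey2* held 2 matches each, as did 0.256% of all 32851 promoters, counting those with 2 or more. A match of letters is a description and shows no binding. No promoter was read for *Hes1*, *Hey1*, *Mfng*, *Mib1*, *Dtx3* or *Dtx4*.

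Some members share sequence with a gene on the opposite strand, and the strand setting of the counts is not given in the sources used here, although the labels name a stranded kit. Those with an overlap above 10% of their exonic length are as follows. *Nrarp* overlaps *Gm38287* over 79.4% of its exonic length, *Hes5* overlaps *Gm20421* over 31.8%, *Dll1* overlaps *A930024N18Rik* over 20.5%, and *Aph1a* overlaps *Car14* over 12.9%. The partners of *Nrarp*, *Hes5* and *Dll1* had fewer counts than these genes, with 36 to 51 counts of *Gm38287*, 21 to 33 of *Gm20421* and 71 to 109 of *A930024N18Rik* in TdTomato- libraries. In TdTomato+ libraries the first 2 had 2 to 8 and 1 to 6 counts, and *A930024N18Rik* had 113 to 177 where *Dll1* had 654 to 849. *Car14* was closer to its partner, at 176 to 343 counts in TdTomato- libraries against 434 to 556 for *Aph1a*, and fell (log2 fold change -4.16, adjusted p = 1.6e-07, edgeR) where *Aph1a* was at -0.01. *Gm38287* and *Gm20421* fell in TdTomato+ cells as their partners did (log2 fold changes -3.27 and -3.26), and *A930024N18Rik* rose (0.85, adjusted p = 0.0020, edgeR) where *Dll1* fell. How far reads were split between such partners was not tested.

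Besides the difference between populations, some members differed between mice, as tested over both populations together and not within each. A test of the mouse term in the same edgeR fit, chosen after the data had been seen, called 3 of the 40 members (*Hey1*, adjusted p = 0.027; *Dlk1*, adjusted p = 0.032; *Dtx3*, adjusted p = 0.047), against 1.86% of all genes. DESeq2 called 7 members for the same term, against 7.12% of the genes for which it gave an adjusted p. *Dlk1* had the widest range over mice, 2.45 in log2 CPM, and was highest in mouse 4 (74.0 and 11.9 CPM in its TdTomato- and TdTomato+ cells) and lowest in mouse 6 (22.7 and 1.22 CPM). Mice 3 and 4 had the highest *Dlk1* and *Hey1* of each population, and also the highest *Dner* (159 and 194 against 120 to 128 CPM for TdTomato-, and 480 and 484 against 174 to 293 CPM for TdTomato+ libraries), though *Dner* itself did not pass (adjusted p = 0.070). *Dtx3* had the reverse tendency, highest in mouse 2. The summed deep-layer markers were also highest in mice 3 and 4, both in TdTomato+ (5547 and 5296 CPM against 4315 to 4813 CPM) and in TdTomato- libraries (1592 and 1500 CPM against 1157 to 1377 CPM), but the list did not move as 1: *Tbr1*, *Sox5* and *Bcl11b* were highest there in TdTomato+ libraries, whereas *Fezf2* (516 and 514 CPM against 579 to 682 CPM) and *Foxp2* (30.3 and 24.5 CPM against 59.6 to 66.7 CPM) were lowest. Other lists differed in the same mice. In TdTomato- libraries of mice 3 and 4 the sums of microglia markers (14.7 and 20.3 against 53.1 to 68.5 CPM) and of radial glia markers (1949 and 1744 against 2075 to 2184 CPM) were lowest. The radial glia list did not move as 1 either. *Tnc* (53.6 and 41.1 against 173 to 213 CPM), *Fabp7*, *Slc1a3*, *Hopx* and *Ednrb* were lowest there. *Nes* was highest there (410 and 373 against 327 to 361 CPM), and *Sox2*, *Pax6*, *Vim* and *Sox9* showed neither order. The sum of the 2 meningeal markers in the table was highest there (2.90 and 5.29 against 1.88 to 2.50 CPM), and of these *Col1a2* differed between mice (adjusted p = 0.046, edgeR) and, like *Dlk1*, was highest in mouse 4 (4.65 CPM) and then in mouse 3 (2.00 CPM) in TdTomato- libraries. *Dcn*, the other, was not called between mice (adjusted p = 0.37, edgeR) and was highest in mouse 2 (1.09 CPM, against 0.899 and 0.642 CPM in mice 3 and 4). In TdTomato+ libraries the meningeal sum was lowest in mouse 3 (0.564 against 0.768 to 1.09 CPM). The part of these markers was not tested. Without each mouse in turn, 1 or 2 members were called by edgeR (0.517 to 1.43% of all genes), and 0 without mice 3 and 4 (0.510% of all genes).

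**Figure D4:**
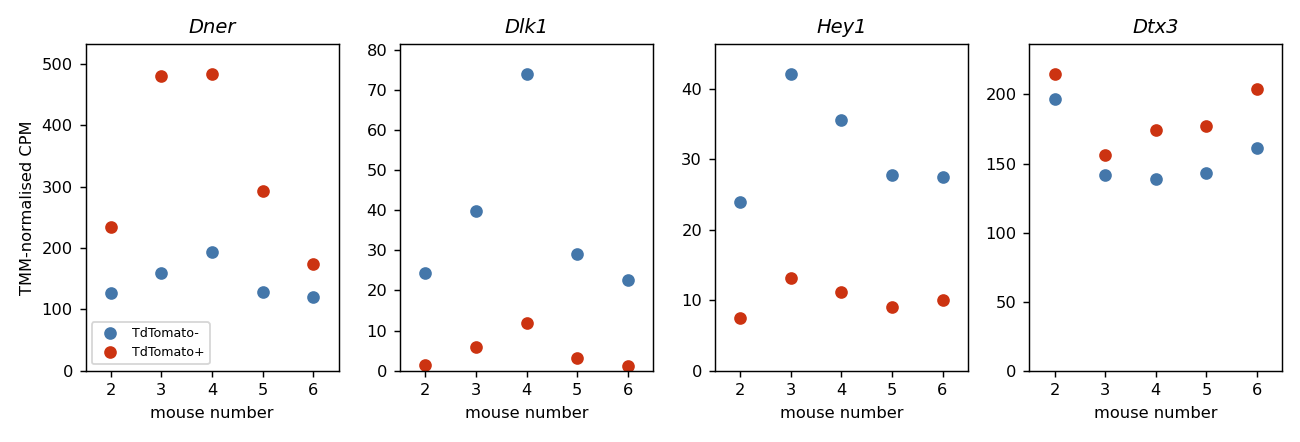
TMM-normalised CPM of *Dner*, *Dlk1*, *Hey1* and *Dtx3* against mouse number in TdTomato- and TdTomato+ libraries (1 point per library, axes from 0). *Dner*, *Dlk1* and *Hey1* are highest in mice 3 and 4 in both populations, and *Dtx3* is highest in mouse 2.

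The residue of Notch transcripts in TdTomato+ libraries also varied between mice. The log2 difference of *Hes5* between the populations of a mouse was -6.48 in mouse 2 and -5.46 to -4.55 in the other mice, and that of *Notch1* was -5.84 in mouse 2 and -5.53 to -4.72 in the others. Of the 23 lower members, 11 had their largest fall in mouse 2, among them *Lfng* (-5.63), *Mfng* (-5.30), *Notch3* (-4.40), *Maml3* (-3.08) and *Jag1* (-3.03), 3 in mouse 3, 2 in mouse 4, 3 in mouse 5 and 4 in mouse 6. How often all lower genes had their largest fall in mouse 2 was not counted, so this cannot be read as particular to the members. For *Jag1* the TdTomato- library of mouse 2 was high (32.4 against 23.3 to 25.6 CPM), and its TdTomato+ level in that mouse (3.90 CPM) was not the lowest. *Hey2* fell least in mouse 2 (-2.67), *Hes1* fell most in mouse 6 (-5.15), and the lowest TdTomato+ counts of *Notch1* (176) and *Notch2* (213) were in mouse 4. The TdTomato+ library of mouse 2 also had the lowest sums of radial glia markers (136 CPM against 152 to 192 CPM) and of proliferation markers (53.6 CPM against 68.7 to 87.0 CPM), and also of microglia (0.725 against 0.867 to 1.58 CPM) and erythroid markers (1.18 against 4.26 to 25.7 CPM), whereas the sum of intermediate progenitor markers was lowest in mouse 4 (99.2 CPM, beside 101 CPM in mouse 2). Sums of GABAergic and subpallial (51.3 CPM in mouse 6, 56.4 CPM in mouse 2), pericyte (1.02 CPM in mouse 4, 2.22 CPM in mouse 2) and endothelial markers (2.12 CPM in mouse 6, 3.36 CPM in mouse 2) were lowest in other mice, as was the meningeal sum. Within the radial glia and proliferation lists, *Nes*, *Slc1a3*, *Tnc*, *Hopx*, *Ednrb* and *Pcna* were not lowest in mouse 2. The part of these markers in the levels of these genes was not tested. When each mouse was left out in turn, *Hes5* stayed at -5.50 to -5.09, *Notch1* at -5.41 to -5.13 and *Lfng* at -5.33 to -5.12 (log2 fold change).

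Of 58 further genes of the pathway listed from general knowledge, 53 were in the table, 16 higher, 27 lower and 10 not called (edgeR, adjusted p of 0.05 or less), beside 37.9% and 39.4% of all genes higher and lower. Under the alternatives 39 to 44 of the 53 were called, and *Aes*, *Ep300*, *Spen*, *Eogt* and *Dvl1* lost their call in at least 1. Their log2 fold changes had a median of -0.12, with 3 higher and 2 lower past both thresholds, beside 3.20% and 9.74% of all genes. *Ccn3*, a secreted protein reported to bind Notch1, had the largest rise but few reads, with 0 to 7 counts in TdTomato- and 40 to 83 in TdTomato+ libraries (3.60, s.e. 0.42, adjusted p = 4.3e-05). *Lnx2*, a ubiquitin ligase that binds Numb, rose by 2.43 (s.e. 0.08, adjusted p = 1.3e-08), from 468 to 876 counts up to 2490 to 3374. *Cntn1*, a neuronal adhesion molecule, rose by 2.30 (s.e. 0.10, adjusted p = 4.5e-08). *Nfatc1*, a transcription factor gene, fell from 37 to 85 counts down to 0 to 6 (-4.00, s.e. 0.44, adjusted p = 2.7e-05). *Dtx3l*, a Deltex relative, fell by 2.81 (s.e. 0.31, adjusted p = 2.7e-05), and *Notch4*, the receptor best known from endothelium, fell by 1.86 (s.e. 0.16, adjusted p = 6.8e-06), with 23 to 37 counts per TdTomato+ library.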

How the data were processed

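The authors trimmed the reads (Phred under 28 and adaptors), mapped them to GRCm38 by STAR 2.4.2a, allowing 1 mismatch and unique hits only, and deposited raw counts per gene with no normalization; edgeR 3.28.0 is named in the submitters' processing notes. The annotation release and strand setting are not given in the sources used here, and the methods and the labels differ in kit, sequencer and read length. Counts of all 10 libraries were tested here with edgeR 4.0.16 in R 4.3.3 (filterByExpr, which removed 0 genes, TMM, glmQLFit, glmQLFTest, two-sided, mouse number as a block, following the paired comparisons in the methods), with Benjamini-Hochberg adjustment over 14300 genes. The standard error is the fold change divided by the square root of F. Calls needed an adjusted p of 0.05 or less and, for both thresholds, a log2 fold change of 2 or more in size. The mouse numbers come from the sample titles. Deviations of libraries from their group means correlated at 0.186 to 0.316 within a mouse number and at -0.312 to 0.212 between numbers. No pair of libraries of a population agreed within sampling noise (chi-square per degree of freedom 4.53 to 32.8 over 20 pairs). With the mouse as a block, the p-values for the populations are set against the spread left between these libraries after mouse and population are fitted.

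Log2 CPM used a prior count of 2. Exonic lengths, coordinates and overlaps came from GENCODE M21 (GRCm38), and shares used counts per kb of exon. The floor of 3 counts covers counting error only, and confidence intervals come from the edgeR fit. The fit between populations was tested on simulated counts with planted changes. These had the same dispersion for all genes and no mouse effect, so they do not check the mouse term. Members and lists were chosen with earlier results of these data known. All members are named; counts in every library are given for the largest fold change, the highest level per kb and the members that move against their role, and for a few others chosen after their values were seen. Alternatives were RLE and upper-quartile scaling, DESeq2 1.42.0, other count filters, no block, TREAT, a prior count of 2, robust estimation, each mouse left out and, added after the data had been seen, mice 3 and 4 left out together and shares without division by length.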

Additional observations from a re-analysis of the deposited data

Results flagged for a closer look

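In 4 of 80 groups of 5 libraries (40 members in each population, log2 CPM), 1 library stood apart: its distance from the next value exceeded 0.71 of the spread from lowest to highest. About 1 in 20 groups, or 4 here, would do so by chance. *Notch2* was low in the TdTomato- library of mouse 4 (ratio 0.794, 6.89 log2 CPM against 7.41 to 7.54). *Jag1* was high in the TdTomato- library of mouse 2 (ratio 0.719, 5.02 against 4.55 to 4.68), as was *Ncstn* (ratio 0.739, 6.75 against 6.59 to 6.63). *Hes6* was high in the TdTomato+ library of mouse 4 (ratio 0.814, 5.86 against 5.62 to 5.66). Without the mouse that stood apart, the log2 fold change was -3.86 for *Notch2*, -1.28 for *Hes6*, -2.50 for *Jag1* and -0.15 for *Ncstn*, against -3.82, -1.27, -2.61 and -0.17 with all mice.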

How the results depend on the processing

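Under every alternative that was run, 12 members remained past both thresholds in number, all lower, and outside TREAT 23 to 25 members were lower and 12 higher, except without the replicate block, where the count was 11 because *Dtx3* was lost (0.24, adjusted p = 0.064). The block changed no other member's call. Upper-quartile scaling also called *Adam10* (-0.12, adjusted p = 0.038) and *Psenen* (-0.19, adjusted p = 0.034) lower, and *Psenen* was also called without mouse 2 (-0.21, adjusted p = 0.042) and with a stricter count filter (-0.18, adjusted p = 0.047). Members near 0 changed sign, none past the threshold. *Aph1a* ranged from -0.04 to 0.02 with 1 mouse left out and was 0.06 without mice 3 and 4, *Dtx4* ranged from -0.12 to 0.03 and was 0.08 without both, and *Mib1* was 0.02 without both. Of the 43 other pathway genes called, DESeq2 lost 3 (*Aes*, adjusted p = 0.086, *Eogt*, 0.075, and *Ep300*, 0.053), RLE scaling *Aes* (0.061), the fit without the replicate block *Dvl1* (0.18), the fit without mice 3 and 4 *Aes* and *Eogt* (0.11 and 0.17), and with 1 mouse left out 39 to 43 were called. Calls were gained by *Ccnc* without mice 3 and 4 (0.42 against 0.21, adjusted p = 0.017), *Fbxw7* without mouse 6 (0.16 against 0.10, adjusted p = 0.039) and *Crebbp* under upper-quartile scaling (-0.12, adjusted p = 0.032) and without mouse 6 (-0.13, adjusted p = 0.045). Among those not called, *Cdk8* was -0.02 under upper-quartile scaling, -0.00 with that filter, -0.01 without the replicate block and -0.03 to 0.06 with 1 mouse left out, and without mice 3 and 4 it was -0.03, *Dtx2* -0.02 and *Furin* 0.08. The number of members that differed between mice was the least stable, 7 by DESeq2, 1 to 2 with 1 mouse left out and 0 without mice 3 and 4, against 3, as the share of all genes called also moved (7.12%, 0.517 to 1.43% and 0.510%, against 1.86%). The cause of these shifts was not tested. Shares in TdTomato+ cells moved by more than 1 s.d. when counts were not divided by length for *Notch1*, *Notch3*, *Numb*, *Numbl*, *Maml1*, *Maml3*, *Aph1a*, *Aph1b*, *Dll1*, *Dll3*, *Jag1* and *Jag2* (for example 92.0% for *Numbl* and 83.6% for *Aph1b*). The number of genes past both thresholds was 1350 under TREAT against 1850. Genes with few reads, such as *Hey2* at 4 to 10 counts per TdTomato+ library, are limited by depth.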
